A study of Capsicum annuum with 4 samples.

Results

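Chalcone synthase CHS1 has 2 counterparts in the pepper genome according to the list of tomato ripening genes that the study compiled, and these 2 gene models, CA.PGAv.1.6.scaffold765.1 and CA.PGAv.1.6.scaffold305.2, are described here. They were found by gene identifier among the 35884 gene models counted in each library. The copy of the list used here holds 38 gene models under 31 tomato names and covers only part of the tomato genes that the study selected, so ranks and counts within the list hold for these 38 alone. The rule of membership used neither counts nor fold changes of the fruits, but the members were chosen with earlier results of these data known. At 68 days after anthesis (DAA) the scaffold765.1 copy was 3.75-fold higher than at 20 DAA, while the scaffold305.2 copy had no count in any library.

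Chalcone synthase is a type III polyketide synthase that condenses p-coumaroyl-CoA with malonyl-CoA to naringenin chalcone. This is the entry step of flavonoid biosynthesis, from which flavonols, flavanones and anthocyanins derive. In tomato, naringenin chalcone is known for building up in the fruit peel during ripening.

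The fruits came from wild Chiltepin (Capsicum annuum var. glabriusculum), wild type in genotype, without treatment, from plants kept in a greenhouse. Red mature fruits at 68 DAA gave 2 RNA-Seq libraries and green immature fruits at 20 DAA gave 2. Each library pooled the RNA of 6 whole fruits, so pericarp, placenta and seeds were measured together, and the replicates came from separate collections of fruits. Serrano pepper was not analysed here.

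The counts on genes ranged from 12139415 in replicate 1 at 68 DAA, the shallowest library, to 26130664 in replicate 2 at 68 DAA. The genes used to check the stage labels lay on the side that each stage is known for. They were picked from the list for their known stage, and the list as a whole is no such check. Its 14 DEGs were 6 higher and 8 lower at 68 DAA. GLK2, a regulator of chloroplasts in green fruit, averaged 0.281 ± 0.0863 CPM (counts scaled to the TMM-normalized library size) at 68 DAA and 136 ± 12.7 CPM at 20 DAA (SD, n = 2 each), and the ripening genes PSY1, PG2 and SGR1 were all DEGs higher at 68 DAA. The list holds no marker that separates pericarp, placenta and seed, so the share of each tissue in a library was not tested.

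The copies differed in the gene models on which reads were counted. On the CM334 genome version 1.6, scaffold765.1 lies on the plus strand of chromosome 5 from 231506516 to 231508632. Its span of 2117 bp holds 2 exons of 178 and 1031 bp with an intron of 908 bp between them. The exons add up to 1209 bp, or 403 codons. The scaffold305.2 model lies on the same strand of chromosome 5 from 227681544 to 227681822, and it is a single exon of 279 bp, or 93 codons. These codon numbers take the whole exon length as coding, and whether either model includes a UTR was not tested. The copies do not overlap and are not tandem neighbours, since 3824693 bp and 110 gene models of the 2068 on chromosome 5 lie between them.

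**Figure D1:**
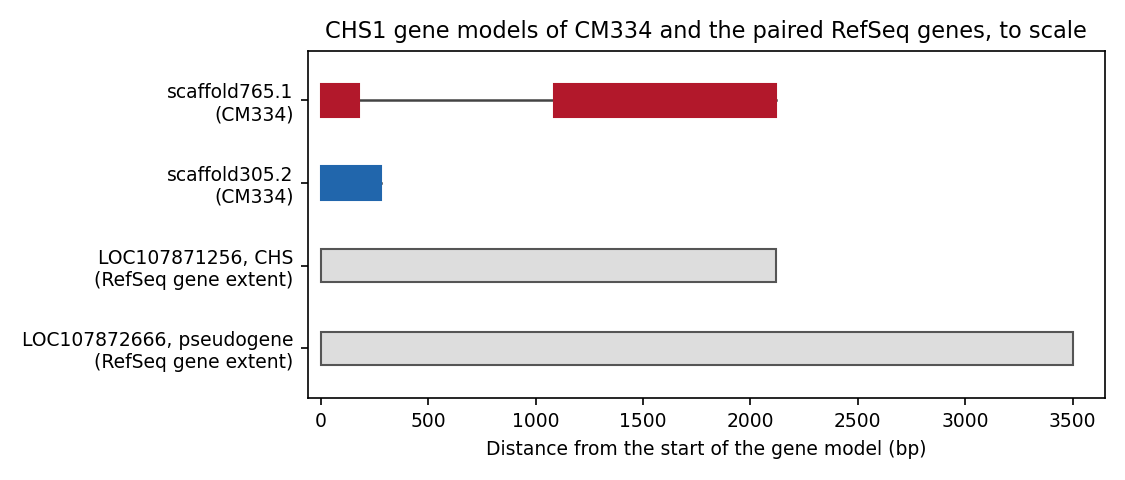
Gene models of both CHS1 copies in CM334 (coloured boxes are exons, the line is the intron) and the extents of the RefSeq genes listed beside them (grey, assembly UCD10Xv1.1), drawn to scale in bp from the start of each model. The scaffold305.2 exon of 279 bp is short beside the 2117 bp span of scaffold765.1, which has the same length as the RefSeq gene LOC107871256.

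In the list, scaffold305.2 stands beside the RefSeq gene LOC107871256 and scaffold765.1 beside LOC107872666. The RefSeq table of assembly UCD10Xv1.1, another genome than CM334, calls LOC107871256 a protein-coding gene with the synonym CHS, and LOC107872666 a pseudogene. LOC107871256 is 2117 bp long, the same length as the span of scaffold765.1. No other CM334 model on chromosome 5 has this span, and 6 of all models in the genome do. Among the RefSeq genes, 12 have this length, LOC107871256 included, and 2 of them lie on chromosome 5. No pair as listed had equal lengths. In the pairs as listed, the CM334 span was 0.132 of the RefSeq length for scaffold305.2 and 0.604 for scaffold765.1, with a median of 0.907 over the other matched genes of the list and a range of 0.0215 to 3.61. Both RefSeq genes lie on chromosome 5 with 49 genes between them, LOC107872666 first. In CM334, scaffold305.2 comes first. Which CM334 model belongs to which RefSeq gene was not tested, because no sequences of either were used here, so the gene types are not assigned to the copies.

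The scaffold765.1 copy was expressed in all 4 libraries, and at a higher level in mature fruits. It had 6242 and 15931 counts in replicates 1 and 2 at 68 DAA, against 4478 and 3842 counts at 20 DAA. After normalization this was 534 and 701 CPM at 68 DAA, against 166 and 164 CPM at 20 DAA. Both libraries at 68 DAA were above both libraries at 20 DAA, as were those of 41.8% of all tested genes. The mean level was 618 ± 118 CPM at 68 DAA and 165 ± 1.57 CPM at 20 DAA (SD, n = 2 each). The replicates at 68 DAA differed from each other by 1.31-fold, more than the counting error of 1.27% and 0.792%. Those at 20 DAA differed by 1.01-fold, within the counting error of 1.49% and 1.61%. The 4 ratios of a library at 68 DAA to a library at 20 DAA were 3.22 and 3.26 for replicate 1 at 68 DAA, and 4.22 and 4.28 for replicate 2. In whole fruits, a larger share of cells that express the gene and more RNA per cell cannot be told apart.

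**Figure D2:**
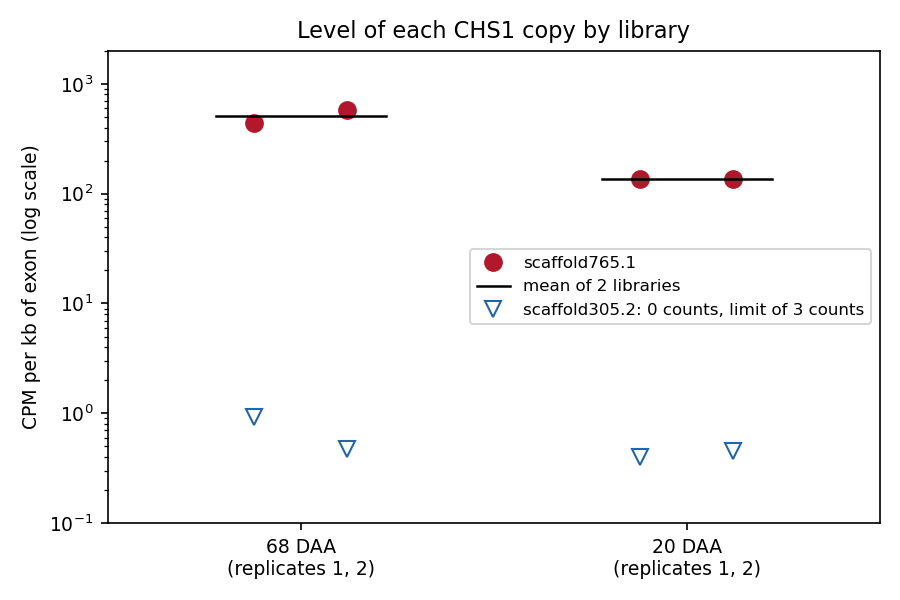
Level of both CHS1 copies in each library, in CPM per kb of exon on a log axis, at 68 DAA (left) and 20 DAA (right). Filled circles are scaffold765.1 with the mean of 2 libraries as a line, 511 at 68 DAA and 136 at 20 DAA, and open triangles are the limit that 0 counts allow for scaffold305.2, between 0.399 and 0.920.

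Between the stages, the log2 fold change of scaffold765.1 (68 over 20 DAA) was 1.91 (SE 0.20). The adjusted p was 0.000258 by the quasi-likelihood test of edgeR over 17160 tested genes. DEGs had to pass an FDR limit of 0.01 as well as a 4-fold limit. The copy passed the FDR limit and stayed below the fold limit. The limma-voom fit gave 3.68-fold with a 95% interval of 2.86 to 4.74, which includes 4-fold. Of all tested genes, 57.7% passed the FDR limit alone, 25.7% passed it with a higher level at 68 DAA, and 26.9% were DEGs. Far fewer DEGs are reported in the paper for its contrast Ch20-Ch68. The paper's edgeR analysis also covered Serrano, so its calls are not those used here. Among the 4415 genes that passed the FDR limit and were higher at 68 DAA, 3005 had changes below 4-fold, as scaffold765.1 did. The call depended on replicate 1 at 68 DAA. Without that library the log2 fold change was 2.16 (adjusted p 1.15e-05, edgeR quasi-likelihood test) and the copy was a DEG. Taken alone, the values of this gene cannot go below p = 0.333 in an exact two-sided permutation test of 2 against 2 libraries.

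The change of scaffold765.1 lay in the upper part of the range of all tested genes. A larger log2 fold change was found for 1546 tested genes (9.01%), and the median over all tested genes was -0.04. Scaling by library totals alone moved that median to -0.30 and the log2 fold change of scaffold765.1 to 1.64, which left a distance of 1.94 from the median, against 1.95 with TMM. Per kb of exon, scaffold765.1 had 442 and 580 CPM at 68 DAA, against 137 and 136 CPM at 20 DAA. This level was at or above that of 98.5% of tested genes at 68 DAA and of 92.6% at 20 DAA. It was 32.1 times the median tested gene at 68 DAA (15.9 CPM per kb) and 7.71 times the median at 20 DAA (17.7 CPM per kb). The TPM scale divides by length before scaling and was computed without TMM factors, so its ratio between stages differs from that of CPM. On it the copy had 399 ± 46.0 at 68 DAA and 133 ± 1.69 at 20 DAA (SD, n = 2 each).

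No read was counted on scaffold305.2. The copy had 0 counts in replicates 1 and 2 at 68 DAA and 0 in both replicates at 20 DAA, so it could not be tested. A count of 0 was taken to allow at most 3 counts, about the upper limit at 95% confidence. The level of scaffold305.2 was then at most 0.920 and 0.473 CPM per kb of exon at 68 DAA. At 20 DAA it was at most 0.399 and 0.458. A lower level was not detectable at this depth. These limits hold for the annotated exon of the model and cover counting error only. The authors' counting set aside reads that aligned at several places, which were between 3.07% and 5.22% of the entries of each library, ambiguous reads, between 0.465% and 0.775%, and reads of low alignment quality, between 5.40% and 7.15%. Reads that fell on no gene model were between 18.4% and 23.5% of the entries. Whether any of these reads came from CHS1 was not tested.

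A model without counts was common among models like scaffold305.2. In the annotation its source is named PGA1.6, and 49.3% of the 3336 models from that source had no count in any of the 4 libraries. Among the 646 PGA1.6 models with 1 exon of at most 300 bp the share was 68.9%, and among the 1637 such models of any source it was 58.5%. The share was 23.7% over all 35884 models and 28.8% over the 1067 models from UNIPROT, the source of scaffold765.1. In the ripening list, scaffold305.2 was the only gene of the 38 with 0 counts in all libraries. Another short model of that list, scaffold649.21 for the lipoxygenase TomloxC, is a single exon of 381 bp. It had 15 and 58 counts at 68 DAA, against 38 and 33 counts at 20 DAA.

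**Figure D3:**
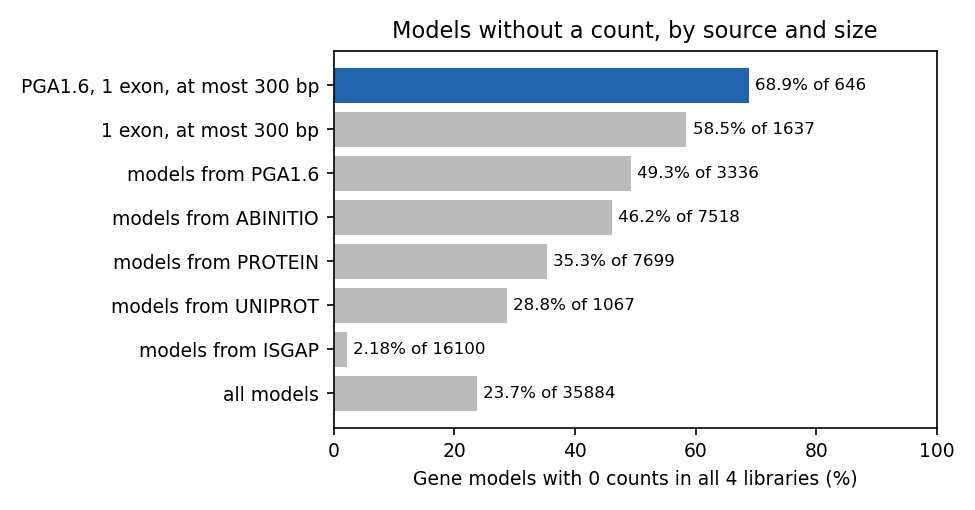
Share of gene models with 0 counts in all 4 libraries (%), by the source of the model in the annotation and by size. The class of scaffold305.2 (blue, 68.9% of 646 models) has the highest share of those drawn, and ISGAP models have the lowest, 2.18% of 16100.

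Levels of the copies were compared per kb of exon, with scaffold305.2 set to 3 counts. The bounds and shares below hold for assigned reads and cover counting error only, not reads that the counting set aside. At 68 DAA the assigned counts per kb of scaffold765.1 exceeded those of scaffold305.2 by at least 480-fold in replicate 1 and at least 1226-fold in replicate 2. At 20 DAA the bounds were at least 344-fold in replicate 1 and at least 296-fold in replicate 2. On the log2 scale the mean of these bounds over the 4 libraries was 8.95 (SD 0.92), and 8.14 with the whole gene span as length. The bounds follow the counts of scaffold765.1 alone, and whether the ratio of the copies differed between stages could not be tested. With the same 3 counts per library, the 0 counts of scaffold305.2 allow a share of the CHS1 counts of at most 0.0481% (replicate 1) and 0.0188% (replicate 2) at 68 DAA, and of at most 0.0670% (replicate 1) and 0.0781% (replicate 2) at 20 DAA. Since the sum of both copies equals the counts of scaffold765.1, its log2 fold change was also 1.91.

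Of the 5 tomato names with several pepper genes in the list, CHS1 was the only one whose counts fell on the same model in full in every library. For CGS, a gene of methionine synthesis with 2 models, the model with the most counts over all libraries took between 99.963% and 100% of the counts of a library. That model took between 45.7% and 97.8% for the MADS-box regulator MADS-RIN (2 models), between 42.0% and 51.2% for TCTR1 (3 models), a regulator of ethylene signalling, and between 48.7% and 99.9% for TomloxC (3 models). Another model had more counts in some libraries for each of these 3 names. For MADS-RIN, scaffold1091.1 had 79 and 89 counts at 20 DAA, against 68 and 75 for scaffold1021.30, and for TomloxC, scaffold649.21 had 58 counts in replicate 2 at 68 DAA, against 55 for scaffold649.19. These counts are not divided by length. Per kb of exon, scaffold649.21 averaged 5.04 CPM at 68 DAA and 3.70 at 20 DAA, against 0.925 and 606 for scaffold649.19.

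The gene models nearest to the copies were counted as well. Before scaffold765.1, at a distance of 10156 bp and on the opposite strand, CA.PGAv.1.6.scaffold765.2 had 144 and 249 counts at 68 DAA, against 37 and 18 counts at 20 DAA. This was 12.3 and 11.0 CPM at 68 DAA, against 1.37 and 0.767 CPM at 20 DAA, with a log2 fold change of 3.42 (SE 0.39, adjusted p 0.000236, edgeR quasi-likelihood test). It was therefore higher at 68 DAA, as scaffold765.1 was, at a far lower CPM. On the other side, at 85118 bp, CA.PGAv.1.6.scaffold2187.1 had 0 counts in all libraries. Around scaffold305.2, CA.PGAv.1.6.scaffold305.1 (9237 bp before it) also had 0 counts throughout. CA.PGAv.1.6.scaffold305.3 (15701 bp after it) had 8 and 6 counts at 68 DAA, against 16 and 1 at 20 DAA, too few to be tested. The annotation gives no names for these neighbours.

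Within the ripening list, 32 of the 38 genes were tested and 14 were DEGs, beside 26.9% of all tested genes. Of these 14, 6 were higher and 8 lower at 68 DAA. Among all DEGs, 1410 were higher and 3205 (69.4%) lower. By the FDR limit alone 25 passed, 13 higher and 12 lower, beside 57.7% of all tested genes. The median log2 fold change of the 32 genes was 0.38, beside -0.04 for all tested genes. The scaffold765.1 copy ranked 7 in log2 fold change, directly below the 6 DEGs that were higher at 68 DAA. In level per kb of exon it ranked 8 at 68 DAA and 10 at 20 DAA.

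**Figure D4:**
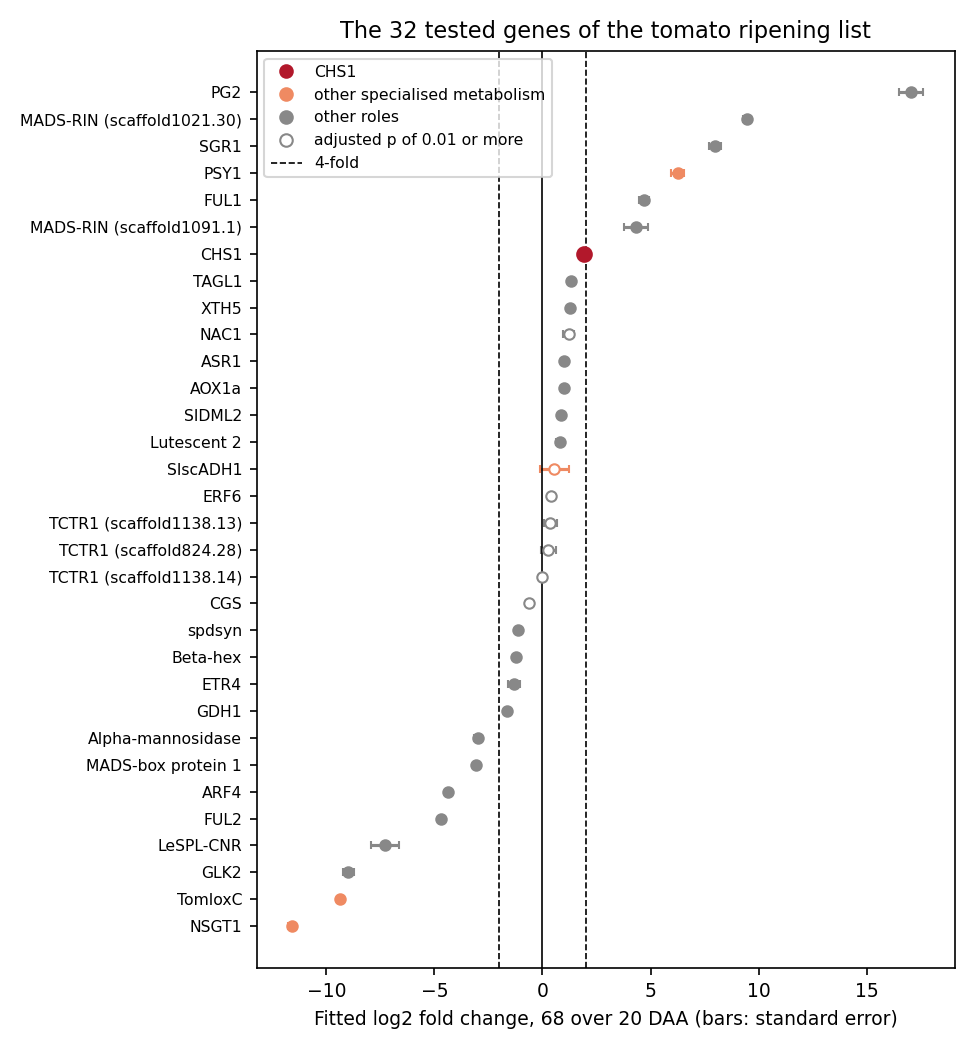
Fitted log2 fold change (68 over 20 DAA) of the 32 tested genes of the ripening list, with bars for the SE between replicates and dashed lines at 4-fold. CHS1 (scaffold765.1, red) lies at 1.91, just inside the 4-fold line, filled circles have an adjusted p under 0.01 (edgeR), and the fitted value of NSGT1, which had 0 counts at 68 DAA, is not a bound.

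With the names available here, no other gene model could be assigned to the flavonoid pathway. CHS1 is therefore set beside the other enzymes of specialised metabolism in the list. The paper reports chalcone isomerase CHI3 as downregulated in Ch20-Ch68. It reports the same for MYB12, which it describes as regulating chalcone synthase. Their gene models were not known here, so their counts were not compared with those of CHS1. Of these 9 genes, 5 were tested. By the FDR limit 2 were higher (CHS1 and PSY1) and 2 lower at 68 DAA, where 57.7% of all tested genes passed and 25.7% passed with a higher level. The median log2 fold change of the 5 genes was 0.55, beside -0.04 for all tested genes. It is the value of SlscADH1 alone (SE 0.68), so it shows no common shift of these enzymes. PSY1, phytoene synthase at the entry of the carotenoid pathway, had 1260 ± 362 CPM at 68 DAA and 16.4 ± 0.688 CPM at 20 DAA (SD, n = 2 each). It was a DEG, at 6.27 on the log2 scale (adjusted p 2.15e-05, edgeR). TomloxC (scaffold649.19), a lipoxygenase of fruit volatiles in tomato, fell to 2.49 ± 0.103 CPM at 68 DAA, against 1633 ± 161 CPM at 20 DAA (adjusted p 7.43e-06, edgeR). NSGT1, a glycosyltransferase of smoky volatiles in tomato, had 0 counts at 68 DAA and 18.3 ± 2.87 CPM at 20 DAA. SlscADH1, an alcohol dehydrogenase, had 6.02 ± 3.71 CPM at 68 DAA and 3.98 ± 0.618 CPM at 20 DAA and did not pass the test (adjusted p 0.320, edgeR). Of the 4 untested genes, scaffold305.2 had no counts, and the hydroquinone glucosyltransferase gene and 2 further TomloxC models had few. The fold change of scaffold765.1 thus lay between those of SlscADH1 and PSY1.

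The genes of the list whose profile over the 4 libraries was nearest to that of scaffold765.1 were TAGL1, XTH5 and NAC1, at Euclidean distances of 0.662, 0.724 and 0.886 between centred log2 CPM values. TAGL1, a MADS-box transcription factor of fruit development, had 386 ± 2.17 CPM at 68 DAA and 157 ± 9.14 CPM at 20 DAA (SD, n = 2 each). Its log2 fold change was 1.30 (SE 0.06, adjusted p 0.000272, edgeR). XTH5, a xyloglucan-modifying enzyme of the cell wall, had 565 ± 45.3 CPM at 68 DAA and 231 ± 4.23 CPM at 20 DAA. The fitted log2 fold change of XTH5 was 1.29 (SE 0.08, adjusted p 0.000441, edgeR). NAC1, a NAC transcription factor that also lies on chromosome 5, had 5.25 ± 0.446 CPM at 68 DAA and 2.27 ± 0.589 CPM at 20 DAA and missed the FDR limit (adjusted p 0.0114, edgeR). The likeness is that of 4 libraries in 2 stages, and 1017 of all tested genes were closer to scaffold765.1 than TAGL1 was.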

How the data were processed

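RNA-Seq of 4 Chiltepin libraries (2 at 68 DAA, 2 at 20 DAA) was analysed. Per the labels and the study's methods, reads were trimmed with Trimmomatic 0.36, aligned to the CM334 genome version 1.6 with HISAT2 2.1.0 and counted per gene with HTSeq 0.11.0 in union mode. The strand setting is not given in the sources used here. The authors deposited raw counts per gene, without normalization, and the gene models. Entries that name no gene (31.7% to 38.2% per library) entered neither library sizes nor tests.

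The filter kept 17160 genes whose average log2 CPM reached 1, which were tested with the quasi-likelihood test of edgeR 4.0.16 in R 4.3.3 after TMM normalization (factors 0.869 to 1.10), all 4 libraries entering the fit, with Benjamini-Hochberg adjustment over all of them. The common biological coefficient of variation was 0.155. The SE came from the spread of replicates in log2 CPM (prior count 2). The replicates differed beyond sampling noise (chi-square over its degrees of freedom was 21.5 for 68 DAA, 11.2 for 20 DAA). In counts simulated for the same 17160 genes, 96% of 200 genes changed by 8-fold were called, and so were 4 unchanged genes. Changes near the 4-fold limit, such as that of scaffold765.1, were not simulated. Alternatives used limma 3.58.1, DESeq2 1.42.0, and other scalings, filters, limits and replicates. A fold over a gene with 0 counts was computed against 3 counts per library.

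Named genes were the 2 copies, the 3 genes of the ripening list with the nearest profiles, the list's enzymes of specialised metabolism and the nearest gene model on each side. The TomloxC model of 381 bp, CGS, MADS-RIN and TCTR1 were added after their values were seen. The members and lists were chosen with earlier results of these data known. Of the list, 36 of 38 genes matched the RefSeq table, used for names, types, lengths and order only. The test of scaffold305.2 and of the ratio between stages could not be run without counts.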

Additional observations from a re-analysis of the deposited data

How the results depend on the processing

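The log2 fold change of scaffold765.1 stayed positive under all 19 alternatives, from 1.64 to 2.16 (adjusted p from 1.58e-21 to 0.00546), and 16 of them left it below the fold limit. Alternatives that changed only the fold or FDR limit reused the main fit, so their value could not differ. With no fold limit, or with a 2-fold limit chosen after seeing the data, that value of 1.91 passed. Leaving out each replicate gave 1.72 to 2.16, also for the summed copies, and only the fit without replicate 1 at 68 DAA (2.16) passed 4-fold. These fits leave a stage with 1 library, which is assumed to vary like the other stage. DEGs numbered 4615, against 9904 with no fold limit, 7629 with a 2-fold limit and 4151 to 4806 with a replicate left out. Other filters on low counts gave 6536 (every gene with a count), 6353 (filterByExpr) and 3476 (mean of log2 CPM of at least 1, chosen after seeing the data). DEGs of the ripening list numbered 14, against 25 with no fold limit, 23 with a 2-fold limit and 14 to 15 with a replicate left out. The mean log2 bound between the copies was 8.95, against 8.14 with the whole gene span as length, 11.07 for counts not divided by length and 8.51 to 9.20 with a replicate left out. Same-numbered libraries shared only a number (correlation of deviations 0.0251 over 17160 genes), and the replicate block gave 1.89 for scaffold765.1 (adjusted p 6.28e-05, edgeR) and 4665 DEGs, and changed no call of the copies. For scaffold305.2 and for the difference of the copies' ratio between stages no alternative gave a value, since scaffold305.2 had 0 counts in every library. The 2 pseudocount alternatives of the copy ratio were not run, because a floor of 3 counts, chosen after seeing the data, replaced the pseudocount. With 2 libraries per stage, the depth of replicate 1 at 68 DAA sets the weakest limit on the CPM per kb of exon of scaffold305.2. The bound between the copies and the limit on the share were weakest in replicate 2 at 20 DAA.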
